A study of Homo sapiens with 6 samples.

Results

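Tubulin-modifying enzymes write and erase chemical marks on microtubules, and 10 genes of this family were followed here after knockdown of CEP20, a protein of centrosomes and centriolar satellites. The members were taken by symbol, and earlier results of these data were known when they were chosen. They were ATAT1, HDAC6 and SIRT2 for acetylation, TTL, VASH1 and SVBP for the terminal tyrosine, TTLL4, TTLL5 and AGBL5 for glutamate chains, and TTLL12, a relative of TTL. All 10 were found among the 60624 Ensembl genes of the table, and all 10 passed the filter on low values.

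The cells were A549, an established human line of non-small cell lung cancer (lung adenocarcinoma) and so a single cell line. RNA was sequenced from 3 samples transfected with small interfering RNA against CEP20 (siCEP20) and from 3 samples given a control RNA (siCTR), 3 days after transfection according to the labels. A further label field, the same in both groups, names a plasmid transfection, whereas the study's methods describe siRNA. Those methods list a pair of siRNAs against CEP20, and neither they nor the labels say which was used for the sequenced samples. The study's general statement on statistics speaks of independent experiments without naming the sequencing, and nothing in the labels says that the 3 samples of a group came from separate cultures, so the p-values measure the spread between these samples, which may be technical.

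Along the microtubule, alpha-tubulin can be acetylated on a lysine inside the tube, can lose or regain the tyrosine at its end, and can carry side chains of glutamate on its tail, as beta-tubulin can. Acetylation is set by ATAT1 and removed by HDAC6 and SIRT2. The tyrosine is cut off by vasohibins (VASH1, VASH2) bound to the small chaperone SVBP and put back by TTL. Glutamates are added by several TTLL ligases and trimmed by carboxypeptidases of the AGBL and AGTPBP1 family. Such marks are known for their enrichment on long-lived microtubules, centrioles and cilia, where they guide motors and severing enzymes.

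Values are TPM, a transcript abundance scaled for length and for the total of each library, which the authors computed for each gene with StringTie on hg38. On this scale the sequencing depth of a library is unknown, and precision rests on the 3 samples of each group. Log2 fold changes (log2FC below) are siCEP20 minus siCTR on the log2(TPM + 1) scale, from a limma fit over the 14778 genes whose mean reached 1 TPM, and they understate changes of genes with low TPM. A gene "passed the test" at an adjusted p-value (Benjamini-Hochberg over all these genes) under 0.05, and was "called" if its fold change was also over 1.5 or under 0.67.

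The knockdown was visible in every library. CEP20 was at 29.2, 30.5 and 35.1 TPM in siCTR and at 16.2, 15.3 and 17.3 TPM in siCEP20 (log2FC -0.92, standard error 0.0915, adjusted p = 0.000205). Of all tested genes, 30.2% passed the test as higher and 13.2% as lower, and 11.2% were called higher and 4.61% lower. The direction of these calls depended on scaling: 70.9% of called genes were higher with unscaled TPM, 43.8% after median-of-ratios scaling, 47.6% after quantile normalization and 50.4% once length and GC content were corrected for. Over all tested genes the median log2FC was 0.13, and median-of-ratios scaling moved it to -0.0052. Markers of epithelial cells (5 genes) summed to between 3230 and 3300 TPM in siCTR and between 4187 and 4368 TPM in siCEP20, but EPCAM was at 0.83 to 3.85 TPM. Of 6 NRF2-driven genes chosen as high in A549, 2 passed the test as higher and 4 as lower. They summed to between 7595 and 8079 TPM in siCTR and between 7354 and 7658 TPM in siCEP20. Among them ALDH3A1 fell most, from 1377 to 724.5 TPM (log2FC -0.93, adjusted p = 3.12e-05). Of 10 markers of leukocytes, endothelial cells and fibroblasts, 8 did not exceed 0.21 TPM, with CD3E and DCN listed at 0 in every library. CD68 and COL1A1 passed the test as higher, so that this list summed to between 20.5 and 29.0 TPM in siCTR and between 46.9 and 63.0 TPM in siCEP20; its part in the results below was not tested.

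TTLL5, a glutamylase, had the largest log2FC of the members, and AGBL5, a deglutamylase, and SIRT2, a deacetylase, were higher too. These 3 of the 10 members passed the test as higher, beside 30.2% of all tested genes. TTLL5 was the 1 member called higher (11.2% of all tested genes were). In the limma fit 0 members passed as lower (at unadjusted p-values, SVBP was lower at 0.0296 and TTLL12 higher at 0.0403). The balance depended on scaling, as it did over all tested genes. After median-of-ratios scaling 2 members passed as higher and 2 as lower, beside 2905 and 3219 of 14778 tested genes. After quantile normalization 3 members passed as higher and 2 as lower, beside 3162 and 2938 of 14778. The length and GC correction also gave 3 and 2, beside 2913 and 3164 of 14737. The median log2FC over the 10 members was 0.03, or -0.10 when the median over all tested genes is subtracted. In 5 members the siCEP20 and siCTR values did not overlap, which was also true of 55.4% of all tested genes. The share of members that passed was therefore close to the background, and the members are described 1 by 1.

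**Figure D1:**
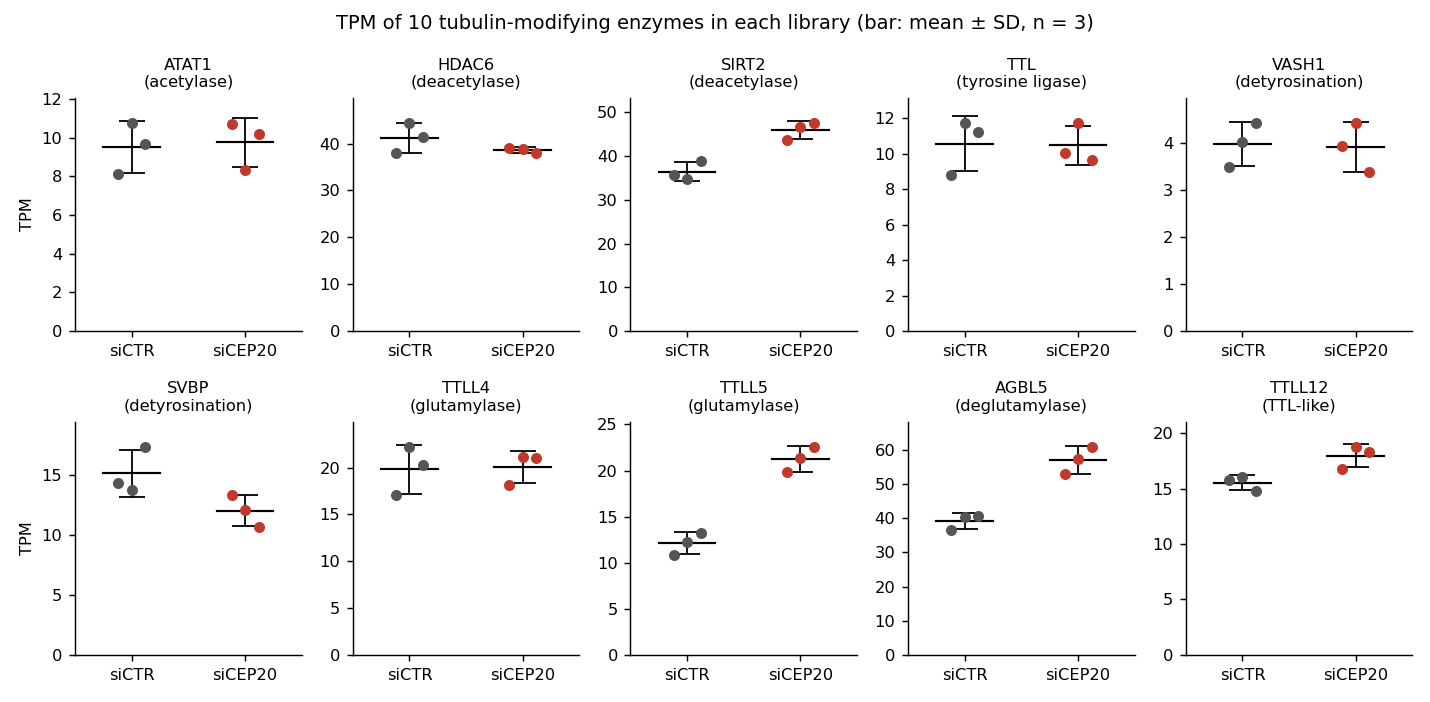
TPM of each member (vertical axes start at 0 and differ between panels) in the 3 siCTR (grey) and 3 siCEP20 (red) libraries, with the mean and SD. TTLL5, AGBL5, SIRT2 and TTLL12 lie higher in every siCEP20 library and SVBP lower, while the groups of ATAT1, HDAC6, TTL, VASH1 and TTLL4 overlap.

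The promoters of the 3 members that passed the test, and of SVBP, whose siCEP20 values were all lower, are shown for reference. Each run gives 250 bases before and 50 bases after the RefSeq start of the gene, 5′ to 3′ along the gene's own strand (RefSeq, GRCh38.p14), and 9 of the 10 members had such a window (not TTLL4). For TTLL5 (75661246) and AGBL5 (27051668) this RefSeq start lies inside the gene span given below, downstream of where that span begins. The bases around the beginning of those spans are not shown. Capitals mark matches on either strand to any of 7 motifs: the CCAAT box (CCAAT), the GC box (GGGCGG), an ETS site (CCGGAAG), the E-box (CACGTG), an NRF1 core (GCATGCGC), a YY1 site (AAGATGGCG) and the TATA box (TATAAA).
TTLL5, chr14:75660996-75661295, plus strand: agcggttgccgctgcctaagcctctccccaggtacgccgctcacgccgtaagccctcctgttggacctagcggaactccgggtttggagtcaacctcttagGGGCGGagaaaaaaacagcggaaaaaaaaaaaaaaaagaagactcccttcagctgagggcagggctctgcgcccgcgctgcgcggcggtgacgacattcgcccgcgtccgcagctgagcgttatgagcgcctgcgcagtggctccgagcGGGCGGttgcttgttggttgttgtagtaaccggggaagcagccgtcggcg
AGBL5, chr2:27051418-27051717, plus strand: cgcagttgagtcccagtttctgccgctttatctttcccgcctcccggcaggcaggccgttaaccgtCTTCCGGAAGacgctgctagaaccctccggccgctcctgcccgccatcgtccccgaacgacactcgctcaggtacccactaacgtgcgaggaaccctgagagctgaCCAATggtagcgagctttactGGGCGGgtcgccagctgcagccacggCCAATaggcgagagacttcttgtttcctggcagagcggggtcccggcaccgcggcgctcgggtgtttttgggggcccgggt
SIRT2, chr19:38899569-38899868, minus strand: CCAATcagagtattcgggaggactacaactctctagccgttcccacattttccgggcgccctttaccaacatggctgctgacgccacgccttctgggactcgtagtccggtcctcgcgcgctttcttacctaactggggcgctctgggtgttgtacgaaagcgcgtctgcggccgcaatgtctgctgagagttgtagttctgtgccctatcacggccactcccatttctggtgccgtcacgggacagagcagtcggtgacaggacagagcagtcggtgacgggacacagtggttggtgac
SVBP, chr1:42817348-42817647, minus strand: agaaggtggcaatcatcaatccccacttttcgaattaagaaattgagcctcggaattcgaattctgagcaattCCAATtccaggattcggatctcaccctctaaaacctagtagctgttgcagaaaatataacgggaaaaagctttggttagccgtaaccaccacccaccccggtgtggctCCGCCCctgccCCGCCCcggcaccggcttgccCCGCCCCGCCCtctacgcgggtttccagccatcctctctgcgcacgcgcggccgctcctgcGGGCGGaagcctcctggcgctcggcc

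The TTLL5 window held 2 GC boxes and none of the other motifs. In the AGBL5 window there were 2 CCAAT boxes, 1 GC box and 2 ETS matches that overlap each other on opposite strands. The SIRT2 window held 1 CCAAT box, and that of SVBP 1 CCAAT box and 5 GC boxes, of which 2 overlap by a base. Among all 35116 promoter windows of the same length, 45.0% held a GC box, 34.6% a CCAAT box, 10.3% an ETS site, 7.26% an E-box, 3.05% an NRF1 core, 1.75% a YY1 site and 11.5% a TATA box. No motif was shared by all 4 windows. GC content was 61.7% for TTLL5, 64.3% for AGBL5, 58.7% for SIRT2 and 59.0% for SVBP, against a median of 58.7% over all windows.

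In siCTR cells the levels of the members, compared per length as TPM, spanned about an order of magnitude. HDAC6 (41.3 ± 3.199 TPM, SD, n = 3), AGBL5 (39.2 ± 2.24) and SIRT2 (36.4 ± 2.22) were the most abundant, and the ranges of neighbours in this order overlapped. TTLL4 followed at 19.9 ± 2.62 TPM, apart from SIRT2 above it and from TTLL12, the next below. Its lowest siCTR value (17.05 TPM) was under the highest of SVBP (17.4 TPM). TTLL12 (15.5 ± 0.68) and SVBP (15.2 ± 1.95) did not differ beyond their spread, nor did TTLL5 (12.1 ± 1.18) from TTL (10.6 ± 1.56) or TTL from ATAT1 (9.51 ± 1.33). VASH1 was lowest, at 3.98 ± 0.46 TPM, and apart from ATAT1. In siCEP20 cells the first 3 were AGBL5, SIRT2 and HDAC6, each apart from the next, and TTLL5 moved from rank 7 to rank 4, within the spread of TTLL4.

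TTLL5 (ENSG00000119685, chromosome 14 from 75633625 to 75955079, plus strand, hg38) encodes a ligase that starts glutamate chains, mainly on alpha-tubulin. It was at 10.9, 12.3 and 13.2 TPM in siCTR and at 19.8, 21.3 and 22.6 TPM in siCEP20. Every siCEP20 library lay above every siCTR library, by a margin wider than the range within either group. The log2FC was 0.76 (standard error 0.0955, 95% interval 0.54 to 0.98, adjusted p = 0.000555), or 0.63 relative to all tested genes, and it stood at percentile 94.3 of all tested genes. After the correction for length and GC content it was 0.55, still past the test but no longer over the fold threshold.

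TTLL5 spans 321.5 kb and overlaps IFT43 and FLVCR2 on its own strand and ERG28 on the other. Exons of IFT43 cover 0.693% and those of FLVCR2 2.71% of the exonic bases of TTLL5, and those of ERG28 cover 0. ERG28 starts 370 bases from the RefSeq start of TTLL5 in the opposite direction. None of these 3 neighbours passed the test: IFT43 had a log2FC of 0.07 (adjusted p = 0.633), FLVCR2 of 0.15 (adjusted p = 0.545) and ERG28 of 0.13 (adjusted p = 0.33). How reads were divided between these genes was not tested.

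TTLL4, another ligase that starts glutamate chains, mainly on beta-tubulin, did not pass the test. It was at 17.1, 22.3 and 20.3 TPM in siCTR and at 18.1, 21.2 and 21.0 TPM in siCEP20. The groups overlapped fully, with a log2FC of 0.02 (95% interval -0.23 to 0.28, adjusted p = 0.884), which turned to -0.13 after median-of-ratios scaling. The ratio of TTLL5 to TTLL4 within a library was therefore 0.638, 0.551 and 0.653 in siCTR and 1.09, 1.01 and 1.07 in siCEP20. TTLL5 thus went from clearly below TTLL4 to about the same level.

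AGBL5 (chromosome 2 from 27042364 to 27070622, plus strand) encodes the carboxypeptidase that removes the glutamate at the branch point of a side chain, the step opposite to TTLL4 and TTLL5. It was at 36.6, 40.3 and 40.7 TPM in siCTR and at 52.9, 57.4 and 61.0 TPM in siCEP20. All siCEP20 values were higher, and the log2FC was 0.53 (standard error 0.0769, 95% interval 0.35 to 0.71, adjusted p = 0.00108), a fold change of 1.44 and thus just under the threshold for a call. OST4, an abundant gene at 531 ± 26.5 TPM in siCTR, overlaps the end of AGBL5 on the opposite strand over 2.86% of its exonic bases and did not pass the test (log2FC 0.06, adjusted p = 0.613). Whether strand was used in quantification is not given in the sources used here.

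Both the writer TTLL5 and the eraser AGBL5 rose. The TTLL5 to AGBL5 ratio was 0.297, 0.305 and 0.325 in siCTR and 0.374, 0.372 and 0.370 in siCEP20, with no overlap. By contrast the TTLL4 to AGBL5 ratio went from 0.465, 0.553 and 0.497 to 0.343, 0.369 and 0.345. Relative to AGBL5, TTLL5 was higher and TTLL4 lower in every siCEP20 library.

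Of the 3 acetylation genes, 1 passed the test. ATAT1, the acetylase, was at 8.11, 10.8 and 9.66 TPM in siCTR and at 10.7, 8.32 and 10.2 TPM in siCEP20. HDAC6, a mainly cytoplasmic deacetylase, was at 38.0, 44.4 and 41.4 TPM in siCTR and at 39.1, 38.9 and 37.9 TPM in siCEP20. The groups overlapped for both genes, and neither passed the test (ATAT1 log2FC 0.03, 95% interval -0.27 to 0.33, adjusted p = 0.857; HDAC6 -0.09, 95% interval -0.26 to 0.08, adjusted p = 0.361). Scaling mattered for HDAC6, which passed as lower after median-of-ratios scaling (-0.24, adjusted p = 0.0159), quantile normalization (-0.21, adjusted p = 0.0324) and the length and GC correction (-0.26, adjusted p = 0.00922). ATAT1 changed sign under the same 3 settings, without passing.

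SIRT2, an NAD-dependent deacetylase, was the acetylation gene that passed. It was at 35.7, 34.7 and 38.9 TPM in siCTR and at 43.6, 46.7 and 47.5 TPM in siCEP20. The groups were separate, with a log2FC of 0.33 (standard error 0.0721, adjusted p = 0.00762), or 0.19 relative to all tested genes. After median-of-ratios scaling it was 0.17 and did not pass (adjusted p = 0.0559). NFKBIB, which starts 82 bases from the RefSeq start of SIRT2 on the opposite strand and inside the printed window, had a log2FC of 0.34 (adjusted p = 0.00924). The 2 genes share 40 exonic bases, or 0.645% of those of SIRT2. The ratio of SIRT2 to HDAC6, in which a scaling factor common to a library cancels, was 0.938, 0.781 and 0.942 in siCTR and 1.11, 1.199 and 1.25 in siCEP20.

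None of the members of the tyrosine cycle passed the test. TTL, which restores the tyrosine, was at 8.79, 11.7 and 11.2 TPM in siCTR and at 10.0, 11.7 and 9.66 TPM in siCEP20. VASH1, which removes it, was at 3.50, 4.02 and 4.42 TPM in siCTR and at 3.93, 4.43 and 3.38 TPM in siCEP20. Both pairs of groups overlapped, with log2FCs of -0.0068 for TTL (95% interval -0.30 to 0.28, adjusted p = 0.97) and -0.02 for VASH1 (95% interval -0.33 to 0.29, adjusted p = 0.916). The VASH1 to TTL ratio was 0.379 ± 0.0305 in siCTR and 0.373 ± 0.0217 in siCEP20 (SD, n = 3 each). After the length and GC correction TTL passed as lower (-0.30, adjusted p = 0.0279).

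SVBP, the chaperone that vasohibins need for stability and activity, was at 14.4, 13.8 and 17.4 TPM in siCTR and at 13.4, 12.1 and 10.7 TPM in siCEP20. Every siCEP20 value was lower, but the margin between the groups was small, and the log2FC of -0.31 (95% interval -0.58 to -0.04) did not pass the test (adjusted p = 0.064). Relative to all tested genes it was -0.44, at percentile 13.8. It passed as lower after median-of-ratios scaling (-0.45, adjusted p = 0.0143) and quantile normalization (-0.46, adjusted p = 0.0126), though not after the length and GC correction. ERMAP, which starts on the opposite strand within SVBP and shares 4.73% of its exonic bases, had a log2FC of 0.21 (adjusted p = 0.141). In these bulk samples, fewer cells with a transcript and less transcript per cell cannot be told apart.

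VASH2, the other vasohibin, stood below the filter on low values because it was scarce in siCTR. It was at 0.15, 0.36 and 0.27 TPM in siCTR and at 1.503, 1.09 and 2.04 TPM in siCEP20. All siCEP20 values were higher. In a limma fit without the filter VASH2 had a log2FC of 1.00 (standard error 0.163, adjusted p = 0.0133). In that fit 3591 of 28974 genes passed as higher. VASH2 was picked after its values were seen, so these values describe it and do not test it. With this gene added, the summed TPM of vasohibins was 3.64, 4.38 and 4.69 in siCTR and 5.44, 5.52 and 5.41 in siCEP20, and VASH2 made up 5.98% ± 2.12 and 28.3% ± 8.94 of it (SD, n = 3 each). SVBP per unit of vasohibin mRNA went from 3.60 ± 0.41 to 2.21 ± 0.24, with no overlap. This ratio takes in VASH2, which was near the floor in siCTR, and SVBP itself did not pass the test. Per unit of VASH1 alone it went from 3.82 ± 0.36 to 3.10 ± 0.34. There the groups barely separated, with 3.42 the lowest siCTR value and 3.39 the highest siCEP20 value.

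TTLL12, a TTL-like protein for which no clear tubulin ligase activity is established, was at 15.8, 16.1 and 14.8 TPM in siCTR and at 16.8, 18.8 and 18.3 TPM in siCEP20. The groups did not overlap, yet the log2FC of 0.20 (95% interval 0.01 to 0.38) did not pass (adjusted p = 0.0818) and was 0.06 relative to all tested genes.

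**Figure D2:**
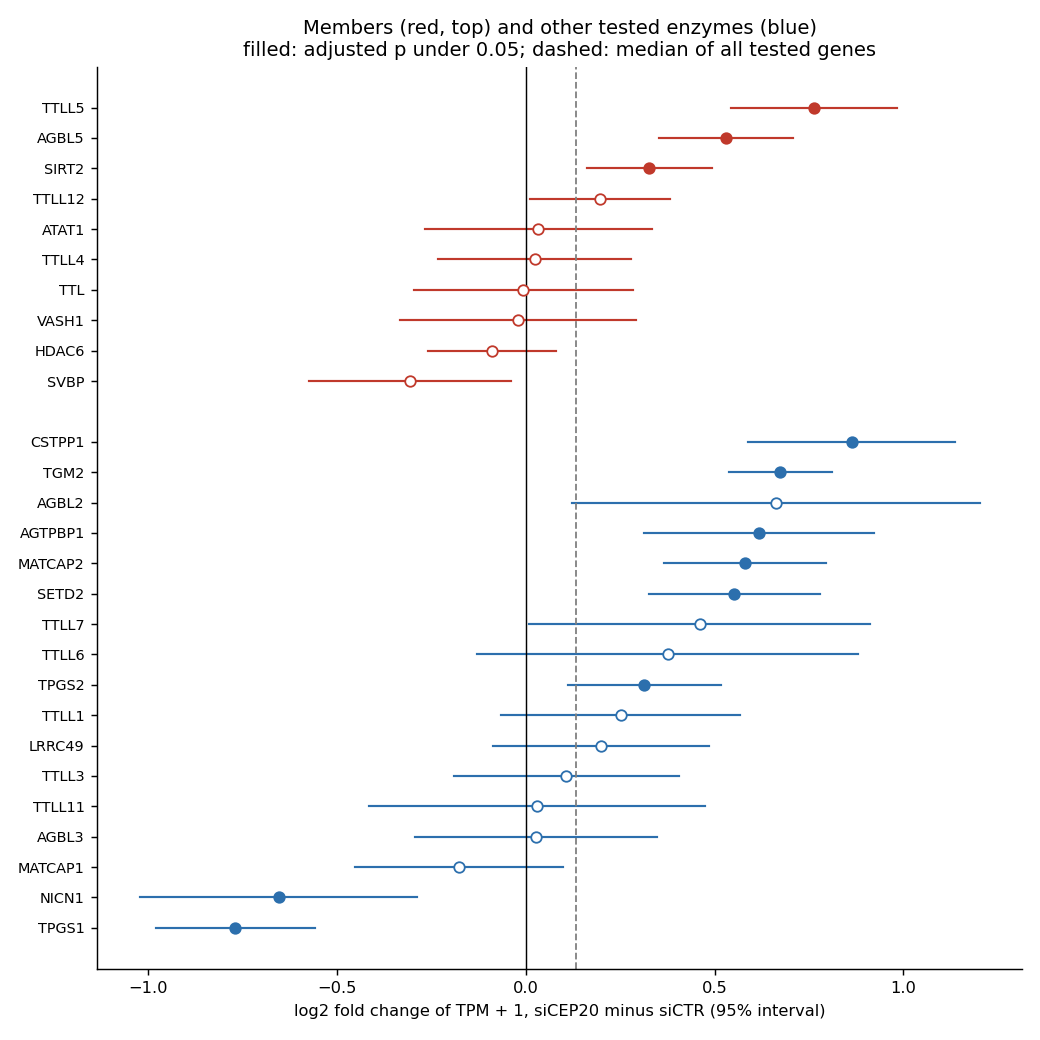
Log2FC (siCEP20 minus siCTR, horizontal axis, with 95% intervals) of the 10 members (red) and of the 17 other tested tubulin-modifying enzymes (blue), where filled points passed the test. The dashed line marks the median of all tested genes at 0.13; TTLL5 lies at 0.76 among the members, and CSTPP1 and TPGS1 mark the ends among the others at 0.86 and -0.77.

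A list of 25 other tubulin-modifying enzymes and subunits put the members in context. Of these, 17 were tested, with 6 passing as higher and 2 as lower, shares of 35.3% and 11.8% against 30.2% and 13.2% of all tested genes. Their median log2FC was 0.31, or 0.18 relative to all tested genes. The genes TTLL2, TTLL8, TTLL10, AGBL1 and AGBL4 were listed at 0 in every library, so that of the glycylases only TTLL3 was measured above the filter (7.19 ± 0.95 and 7.82 ± 1.04 TPM, adjusted p = 0.537). Its values are uncertain, since the readthrough gene ARPC4-TTLL3 covers 21.3% of its exonic bases on the same strand. TTLL9 and TTLL13 did not exceed 1.22 TPM in any library.

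The TTLL1 polyglutamylase complex, which lengthens glutamate chains and sits at centrosomes and cilia, was the group whose subunits moved apart. TPGS1, which localises the complex, was at 21.3, 22.3 and 20.8 TPM in siCTR and at 12.1, 13.5 and 11.01 TPM in siCEP20 (log2FC -0.77, standard error 0.0918, adjusted p = 0.000455). CSTPP1, a subunit linked to centriolar satellites, was at 25.7, 31.6 and 36.1 TPM in siCTR and at 55.0, 54.6 and 61.4 TPM in siCEP20 (log2FC 0.86, standard error 0.119, adjusted p = 0.000869). In both, the groups were far apart but in opposite directions, so that the ratio of CSTPP1 to TPGS1 went from 1.45 ± 0.27 to 4.72 ± 0.78.

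NICN1, another subunit, was at 15.1, 15.8 and 22.3 TPM in siCTR and at 11.2, 9.06 and 12.1 TPM in siCEP20. It fell (log2FC -0.66, adjusted p = 0.012), with siCTR replicate 3 high within its group; without that library the log2FC was -0.49. TPGS2 was at 62.4, 64.9 and 73.8 TPM in siCTR and at 75.6, 85.1 and 90.0 TPM in siCEP20 (log2FC 0.31, adjusted p = 0.0216). It no longer passed without siCTR replicate 1 or 2 or without siCEP20 replicate 2 or 3 (adjusted p from 0.0642 to 0.0704 in these 4 fits). Nor did it pass after median-of-ratios scaling (0.16, adjusted p = 0.114), the length and GC correction (0.12, adjusted p = 0.206) or without a filter on TPM (adjusted p = 0.074). The catalytic subunit TTLL1 (4.07 ± 0.51 and 5.05 ± 0.72 TPM, adjusted p = 0.176) and LRRC49 (5.99 ± 0.87 and 7.003 ± 0.62 TPM, adjusted p = 0.231) did not pass. TPGS1 and CSTPP1 kept their direction and passed the test under all 15 alternative settings. Genes on the opposite strand cover 9.25% of the exonic bases of TPGS1 (MADCAM1-AS1, 1.04 ± 0.90 TPM in siCTR) and 1.30% of those of CSTPP1 (ARFGAP2, which fell, with a log2FC of -0.31 and adjusted p = 0.0367).

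**Figure D3:**
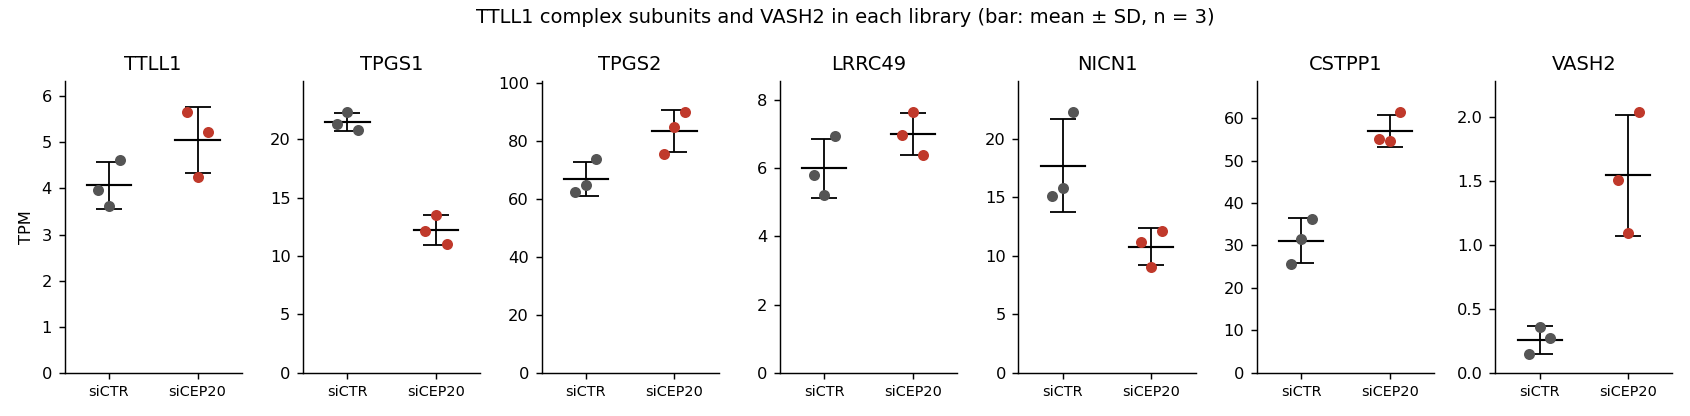
TPM of TTLL1, of 5 subunits of its complex and of VASH2 in the 3 siCTR (grey) and 3 siCEP20 (red) libraries, with the mean and SD (vertical axes start at 0 and differ between panels). TPGS1 and NICN1 are lower and CSTPP1, TPGS2 and VASH2 higher in every siCEP20 library.

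Among the remaining erasers, AGTPBP1, a carboxypeptidase that shortens long glutamate chains, rose from 9.83 ± 0.72 to 15.8 ± 3.01 TPM (log2FC 0.62, adjusted p = 0.00665), with siCEP20 replicate 2 highest at 19.1 TPM. Without that library its log2FC was 0.48 (adjusted p = 0.0154), under the fold threshold, as it was without siCTR replicate 1 (0.58, adjusted p = 0.0259), after median-of-ratios scaling (0.47), after quantile normalization (0.46) and after the length and GC correction (0.40). AGBL2, whose siCTR mean of 0.93 TPM was under the filter and which was tested through its higher siCEP20 values, was at 0.61, 0.64 and 1.53 TPM in siCTR and at 1.70, 1.70 and 2.63 TPM in siCEP20. These groups were separate, but AGBL2 did not pass the test (log2FC 0.66, adjusted p = 0.051). Without siCTR replicate 3 the log2FC was 0.88 (adjusted p = 0.017). Leaving out any other library, AGBL2 did not pass (adjusted p from 0.0768 to 0.151). AGBL3 differed little, with 2.07 ± 0.0862 and 2.13 ± 0.195 TPM (adjusted p = 0.896).

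MATCAP1, a protease that removes the tyrosine without a vasohibin, was at 6.68 ± 0.63 TPM in siCTR and 5.80 ± 0.68 TPM in siCEP20 (adjusted p = 0.266). Its relative MATCAP2 rose from 7.38 ± 0.39 to 11.5 ± 0.78 TPM (log2FC 0.58, adjusted p = 0.00179), and ANLN, which covers 1.15% of its exonic bases from the opposite strand, had a log2FC of 0.59 (adjusted p = 0.00126). After the length and GC correction the log2FC of MATCAP2 was 0.36 (adjusted p = 0.014). The further glutamate ligases TTLL6 (adjusted p = 0.201), TTLL7 (adjusted p = 0.0915) and TTLL11 (adjusted p = 0.914) lay at or under 4.42 TPM in every library, and TTLL7 passed only without siCEP20 replicate 1 (0.65, adjusted p = 0.0259). SETD2, a methyltransferase of histones and of alpha-tubulin, rose from 12.2 ± 1.48 to 18.3 ± 0.52 TPM (log2FC 0.55, adjusted p = 0.00283), with a log2FC of 0.27 after the length and GC correction (adjusted p = 0.0174). TGM2, a transglutaminase able to attach polyamines to tubulin, was the most abundant of these genes and rose from 236 ± 12.98 to 377 ± 16.3 TPM (log2FC 0.67, adjusted p = 0.000123).

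Most of the substrate transcripts rose as well. The summed TPM of 5 chosen alpha-tubulin genes (TUBA1A, TUBA1B, TUBA1C, TUBA4A and TUBA8) was 1517, 1693 and 1716 in siCTR and 2330, 2406 and 2555 in siCEP20. All 4 tested genes passed as higher, beside 30.2% of all tested genes. They also passed after median-of-ratios scaling, with TUBA1B at a log2FC of 0.19 (adjusted p = 0.0128). TUBA4A, whose product lacks the terminal tyrosine as encoded, had the largest log2FC of them, 1.53 (adjusted p = 3.78e-05), from 126.5 ± 10.5 to 368 ± 43.3 TPM. The 7 chosen beta-tubulin genes (TUBB, TUBB2A, TUBB2B, TUBB3, TUBB4A, TUBB4B and TUBB6) summed to 1283, 1399 and 1369 TPM in siCTR and to 1672, 1746 and 1684 TPM in siCEP20. Of these, 6 passed as higher and TUBB4B did not pass (log2FC 0.03, adjusted p = 0.733). After median-of-ratios scaling TUBB2A no longer passed (0.12, adjusted p = 0.259), and TUBB3 was close to the threshold (adjusted p = 0.0467). Set against the alpha-tubulin sum, 8 of the 10 members were lower in every siCEP20 library, AGBL5 overlapped and TTLL5 was higher. On the same scale 60.2% of all tested genes were lower in every siCEP20 library and 6.09% higher, so that a lower ratio was the common case. The 10 ratios share 1 denominator and are not independent of each other.

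Per 1000 TPM of alpha-tubulin, TTL went from 5.79, 6.91 and 6.54 in siCTR to 4.30, 4.87 and 3.78 TPM in siCEP20. HDAC6 went from 25.1, 26.2 and 24.1 to 16.8, 16.2 and 14.9 TPM, and SVBP, the member lowest on this scale relative to siCTR, from 9.47, 8.12 and 10.1 to 5.73, 5.03 and 4.19 TPM. The siCEP20 mean was 67.4% of the siCTR mean for TTL, 63.4% for HDAC6 and 53.9% for SVBP. AGBL5 stayed at 98.3% and TTLL5 stood at 119%, at 7.17, 7.24 and 7.70 TPM in siCTR and 8.50, 8.87 and 8.84 TPM in siCEP20. TTLL4 per 1000 TPM of beta-tubulin, its main substrate, was 13.3, 15.9 and 14.8 TPM in siCTR and 10.9, 12.1 and 12.5 TPM in siCEP20. A scaling factor common to a library cancels in these ratios of mRNA. Quantile normalization and the length and GC correction act on each gene differently and would not cancel. The proteins and the marks themselves were not measured in these files.

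**Figure D4:**
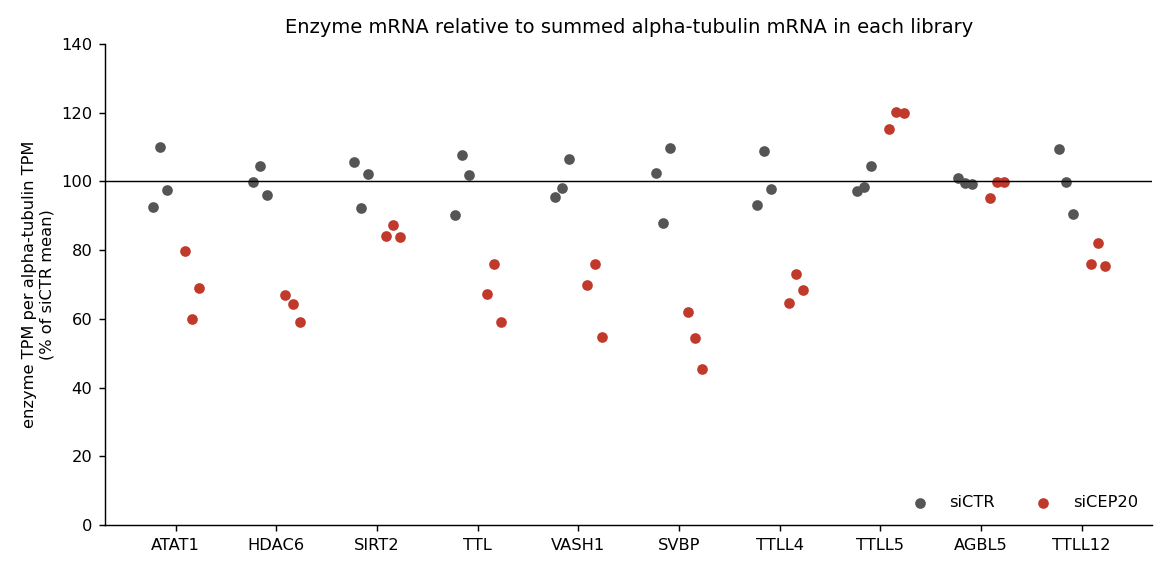
TPM of each member divided by the summed TPM of 5 alpha-tubulin genes in the same library, as a percentage of the siCTR mean, for the siCTR (grey) and siCEP20 (red) libraries. The siCEP20 libraries lie under the siCTR range for 8 members, overlap it for AGBL5 and lie above it for TTLL5. Of all tested genes, 60.2% lie lower without overlap on this scale and 6.09% higher.

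**Figure D5:**
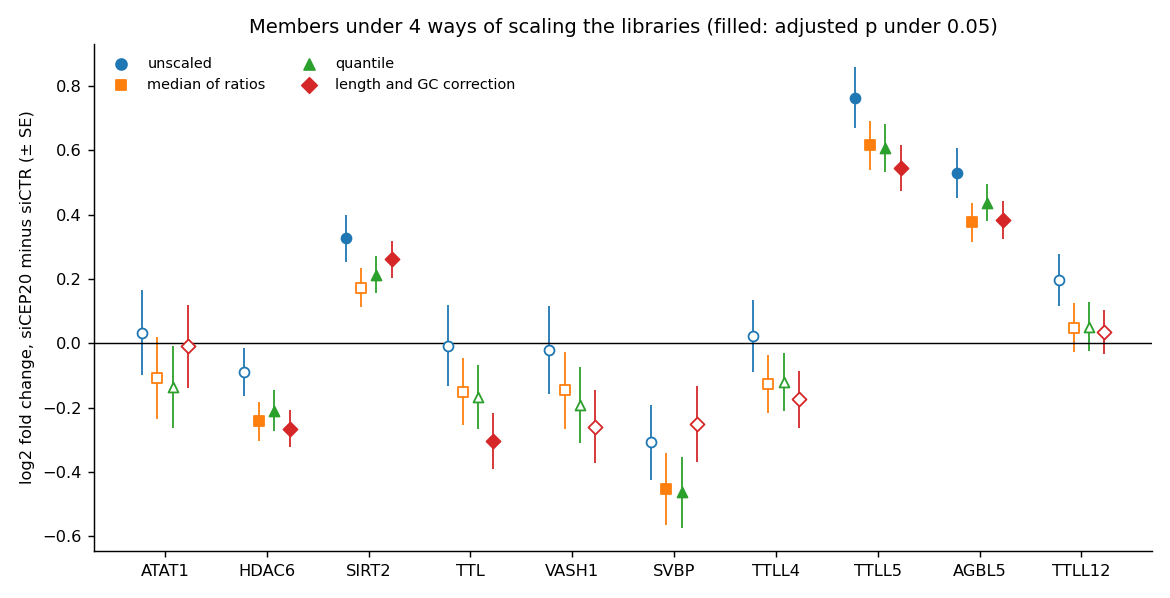
Log2FC (vertical axis, ± standard error) of each member with unscaled TPM, after median-of-ratios scaling, after quantile normalization and after the correction for length and GC content, where filled points passed the test. TTLL5 and AGBL5 are filled under all 4, SIRT2 under 3, HDAC6 under 3, SVBP under 2 and TTL under 1.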

How the data were processed

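RNA-seq of A549 cells was compared between 3 siCEP20 and 3 siCTR samples. The authors trimmed reads with fastp 0.20.1, aligned them to hg38 with HISAT2 2.1.0 and quantified genes with StringTie 2.0, and the deposited values are TPM per Ensembl gene. They hold no counts, so the depth is unknown, and a library total says nothing of depth. Genes were named with GENCODE (hg38), which held 60370 of 60624 IDs. Fits used limma 3.58.1 (R 4.3.3; lmFit, eBayes with a trend) on log2(TPM + 1) for genes whose mean reached 1 TPM, with thresholds from the study's methods. Intervals are from the moderated standard errors. Two-sided exact permutation tests gave p = 0.1 for each member whose groups were apart, the smallest p that 3 against 3 allows. The fit was tested on simulated data. The median-of-ratios factors used 17710 genes, and the length and GC correction a loess curve (span 0.5) per library over the 99.7% of tested genes with both values. Permutations and plots used scipy 1.17.1 and matplotlib 3.10.9 in Python 3.11.15. The members, the list of 25 other enzymes, the tubulin and marker lists and the tests were chosen with earlier results of these data known. The genes named were the members, CEP20, the tested genes of the enzyme list, tubulins, and genes overlapping these. VASH2, other genes under the filter, single markers and the neighbours' start distances were named after their values were seen.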

Additional observations from a re-analysis of the deposited data

How the results depend on the processing

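CEP20 kept its direction and passed the test under all 15 alternatives. The number of members called higher was 1 in the fit reported and in each fit without 1 library (1 to 1), 0 after the length and GC correction, where TTLL5 had a fold change under 1.5, and 3 with no fold threshold; the number called lower was 0 throughout (0 to 0). Over all genes, 1659 were called higher and 682 lower, against 875 and 1121 after median-of-ratios scaling, 923 and 1016 after quantile normalization and 894 and 881 after the length and GC correction.

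Genes that changed sign had not passed the test. After the length and GC correction these were ATAT1 (-0.0086), TTLL4 (-0.17), TTLL11 (-0.22), LRRC49 (-0.061), TTLL3 (-0.051) and AGBL3 (-0.16); after median-of-ratios scaling ATAT1 (-0.11), TTLL4 (-0.13), TTLL11 (-0.071), TTLL3 (-0.031) and AGBL3 (-0.080); and after quantile normalization ATAT1 (-0.14), TTLL4 (-0.12), TTLL11 (-0.11), TTLL3 (-0.070) and AGBL3 (-0.12). With 1 library left out, log2FCs ranged from -0.066 to 0.13 for ATAT1, from -0.12 to 0.065 for TTL, from -0.096 to 0.060 for VASH1, from -0.077 to 0.11 for TTLL4, from -0.13 to 0.20 for TTLL11 and from -0.0097 to 0.078 for AGBL3. The cause was not tested. TTLL5 ranged from 0.55 to 0.82 and AGBL5 from 0.38 to 0.58 over all 15 alternatives.

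Deviations of samples with the same replicate number correlated at 0.157, -0.061 and -0.062, and those of samples with different numbers at -0.121 to 0.17. The labels give no shared batch, so the numbers were not taken as a pairing. With the replicate number as a block, 1 member was called higher and 0 lower, 1654 genes were called higher and 694 lower, and of the genes named AGBL2 passed the test (adjusted p = 0.0287), with no other call changed. AGBL2 also passed without a trend in the variance (adjusted p = 0.045) and among protein-coding genes alone (adjusted p = 0.0351). It did not pass after median-of-ratios scaling (adjusted p = 0.0805), quantile normalization (0.0955) or the length and GC correction (0.124), nor without a filter on TPM (0.134). NICN1 did not pass without a filter on TPM (adjusted p = 0.0627), and MATCAP1 passed as lower after quantile normalization (-0.35, adjusted p = 0.041).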
